A study of Mus musculus with 12 samples.

Results

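Vps15KO fibroblasts in basal medium were compared with WT fibroblasts in the same medium, gene by gene, in 6 poly-A RNA sequencing libraries, 3 of each genotype, out of 12 in the series. All cells were mouse embryonic fibroblasts of the line MEF Vps15f/f, whose Vps15 alleles carry sites for the Cre recombinase, so both genotypes share the floxed alleles and a viral transduction. Vps15KO cells had received adeno-CRE, which excises the floxed DNA, and WT cells adeno-GFP, each for 5 days. The library names read pLEX_CRE and pLEX_GFP instead, and the labels do not say which vector type is right, which exons are removed, what share of cells recombined, or whether the line is 1 clone. No Cre-treated cells without floxed alleles are among the 12 libraries. Effects of Cre, of GFP and of Vps15 loss therefore cannot be told apart, and differences below are named by genotype only. The cells were plated in high glucose DMEM with serum and were kept fed, while the other 6 libraries came from the same genotypes after 2 h in EBSS, a salt solution without amino acids. The 6 fed libraries were taken by their labels, and all genes were considered: 32721 are in the table, and the 14279 with enough reads were tested. The labels do not say that replicates were separate cultures, so p-values measure the spread between these samples, which may be technical.

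Pik3r4 is the gene symbol for Vps15, a scaffold protein of the class 3 PI3K complexes. With the catalytic subunit Vps34 and Beclin 1 it makes phosphatidylinositol 3-phosphate (PI3P) on endosomes and forming autophagosomes. Proteins with PI3P-binding domains are recruited there, and cargo then moves through late endosomes to lysosomes, where amino acids, cholesterol and iron are released. Fibroblasts are also the main makers of connective tissue matrix, which is secreted, taken up again and degraded along the same route.

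Sequencing depth was even, at 21449576 to 21584000 reads in genes in the Vps15KO libraries and 21278921 to 21426535 in the WT libraries. Values below are normalized counts, that is reads worked back from the deposited values and divided by the size factor of the library. A log2 difference is the Vps15KO mean minus the WT mean of the deposited log2 values, which understates ratios of genes with few reads. Its error is the standard error of a limma fit, and a gene was called at an adjusted p under 0.05 over all 14279 genes. One library stood apart. Replicate 2 of WT differed from the other WT libraries by a chi-square of 22.1 and 21.0 per gene, against 3.24 between those and 4.49 to 6.46 among Vps15KO libraries, and ribosomal protein genes took 7.52% of its reads, against 5.98% and 6.37% in the other WT libraries and 6.35% to 6.79% in Vps15KO. Values without it are given where they change a result. Where a gene is given library by library, replicates 1, 2 and 3 stand in order, and the genotypes do not overlap unless that is said.

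The tissue label was checked against marker genes. Among the 16 fibroblast markers that could be tested, 12 were lower in Vps15KO and 3 higher. The summed level of the list was 257200 to 265500 in Vps15KO libraries, against 530800 to 555800 in WT libraries. In bulk RNA, fewer cells of a type and less RNA per cell cannot be told apart. Of 12 macrophage and leukocyte markers in the table, 10 averaged under 10 normalized counts, among them Ptprc, Adgre1 and Lyz2, which define these cells. The summed level of that list was 3021 to 3902 in Vps15KO, against 969 to 1010 in WT, and most of it was Cd68, a lysosomal membrane protein that fibroblasts also make. Epithelial markers summed to 1.95 to 12.8 in Vps15KO and 7.02 to 10.6 in WT. Endothelial markers summed to 125.0 to 143 in Vps15KO and 96.3 to 132.0 in WT, with Pecam1 and Cdh5 under 10. Muscle markers summed to 850.1 to 1066 in Vps15KO and 1788 to 2610 in WT, cartilage and bone markers to 1979 to 2218 in Vps15KO and 1433 to 1594 in WT, neural markers to 1758 to 1937 in Vps15KO and 2353 to 2568 in WT, and adipocyte markers to 656 to 688 in Vps15KO and 758 to 929 in WT. These sums join members that went both ways. Of 5 muscle markers tested 2 were lower and 1 higher. Of 4 cartilage and bone markers tested 2 were higher and 1 lower. Of 5 neural markers tested 2 were lower and 1 higher, and of 3 adipocyte markers 2 were lower and 1 higher.

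Transcripts of the targeted gene were lower but still abundant. Pik3r4 (chr9:105642995-105687655, mm10) had 633, 700 and 640 normalized counts in Vps15KO libraries, against 864, 879 and 884 in WT libraries. The groups did not overlap, and the level in Vps15KO was 75.1% of that in WT (log2 difference -0.40 ± 0.07, adjusted p = 8.41e-05). An exact permutation test over the 6 libraries gave p = 0.1, two-sided, the smallest it can give. These counts cover the whole gene, and reads from exons outside the excised stretch are not separated.

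The partners of Vps15 did not fall with it. Among 13 genes of the class 3 PI3K complexes, 8 were higher, Pik3r4 alone was lower, and the median log2 difference was 0.20, against -0.01 over all genes tested. In all, 29.3% of genes tested were called higher in Vps15KO and 29.2% lower, which is the background for every count below. Pik3c3, which encodes Vps34, had 982, 994 and 1001 normalized counts in Vps15KO, against 1000, 1061 and 993 in WT, overlapping ranges (-0.04 ± 0.06, adjusted p = 0.625). Atg14 and Uvrag encode the subunits that direct the kinase to autophagosomes or to endosomes. Atg14 had 1112, 1042 and 1077 normalized counts in Vps15KO, against 774, 699 and 711 in WT (0.55 ± 0.06, adjusted p = 5.64e-07). Uvrag had 863, 811 and 802 in Vps15KO, against 573, 508 and 537 in WT (0.59 ± 0.07, adjusted p = 9.12e-07). Both were above WT in every library. Becn1, which encodes Beclin 1, was at 0.20 ± 0.07, a call lost without replicate 1 of Vps15KO or replicate 3 of WT and with length and GC trends removed, and Ambra1 (0.01 ± 0.06), Bcl2 (0.18) and Rubcnl (0.28) were not called.

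Genes that act on PI3P or read it were mostly higher where they changed. Of 29 tested, 15 were higher and 1 was lower, with a median log2 difference of 0.16. The largest difference was in Mtm1, which encodes myotubularin, a phosphatase that removes PI3P: its level was 921, 749 and 799 in Vps15KO, against 147, 87.9 and 199 in WT (log2 difference 2.36 ± 0.16, adjusted p = 5.45e-10). Every Vps15KO library was far above every WT library, and the fold between means was 5.69. All 3 genes of the PIKfyve complex, which turns PI3P into PI(3,5)P2, were higher, and the scaffold gene Vac14 had 1240, 1220 and 1184 in Vps15KO, against 720, 892 and 666 in WT. Eea1, an early endosome tether that binds PI3P, was 1.92-fold higher (0.90 ± 0.08). Mtmr9, a catalytically inactive myotubularin, was the member that fell, by 0.23 ± 0.06.

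The largest rises joined antiviral, lipid and stress genes. The 12 called genes with the largest log2 differences and no overlap between genotypes, predicted genes left out, were Cxcl10, Rsad2, Ccl5, Lipg, Oasl1, Slc7a11, Ero1a, Ms4a4d, Prl2c2, Heatr9, P2rx3 and Insig1. By size, 2.95% of genes tested were higher by a log2 of at least 1 and 1.93% lower by as much, and the genotypes did not overlap in 61.7%.

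**Figure D1:**
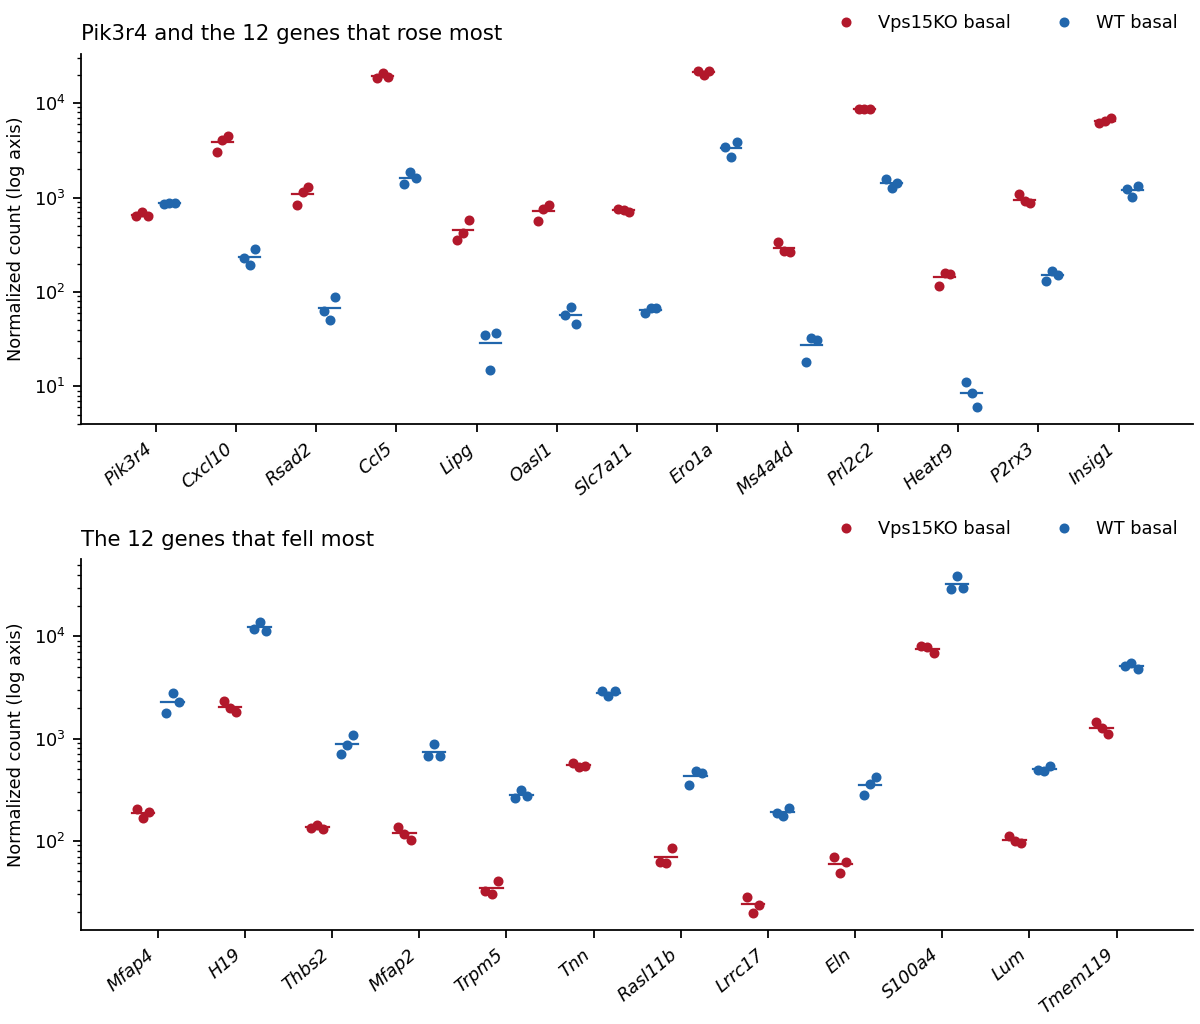
Normalized counts (vertical log axes) of Pik3r4 and the 12 genes that rose most (top) and the 12 that fell most (bottom), one point per library, 3 Vps15KO basal libraries left of 3 WT basal libraries, with a bar at each mean. The largest rises and falls were chosen to have no overlap between genotypes. Pik3r4 was not chosen that way, has no overlap either, and shows the smallest gap.

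Ccl5, a chemokine that draws T cells and monocytes, reached 18220, 20690 and 19010 normalized counts in Vps15KO libraries, against 1388, 1851 and 1617 in WT. The fold between means was 11.9. Heatr9 (chr11:83511679-83522494, mm10), a HEAT repeat gene, lies downstream of Ccl5 (chr11:83525778-83530518) on the same strand. Heatr9 had 115, 159 and 154 in Vps15KO, against 11.0, 8.47 and 5.998 in WT, a fold of 16.8 in the same direction as its neighbour, and reads that run past Ccl5 were not separated from its own. Ms4a4d, a gene for a membrane protein of the MS4A family, had 340, 270 and 265 in Vps15KO, against 18.0, 32.8 and 31.0 in WT. P2rx3, an ATP-gated ion channel best known in sensory neurons, had 1078, 910 and 866 in Vps15KO, against 132, 166 and 151 in WT. Neither gene is a usual marker of fibroblasts. Prl2c2, a proliferin gene with near-identical copies among which reads may be split unevenly, had 8632, 8576 and 8683 in Vps15KO, against 1555, 1265 and 1416 in WT. Ero1a, the oxidase that supplies disulfide bonds in the endoplasmic reticulum, had 22120, 19780 and 21650 in Vps15KO, against 3425, 2669 and 3845 in WT, and was 6.395-fold higher.

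Interferon-stimulated genes were higher, as were the genes that load and display peptides on MHC class I. Among 52 genes of the interferon response, 36 were higher and 6 lower, with a median log2 difference of 0.43. Cxcl10, a chemokine induced by interferon, had 3069, 4100 and 4469 in Vps15KO, against 229, 193 and 284 in WT. Rsad2, which encodes the antiviral enzyme viperin, had 842, 1138 and 1304 in Vps15KO, against 63.1, 50.8 and 89.0 in WT. Both are among the largest rises listed above, for which lack of overlap was a condition of the choice. Of 11 signalling genes in the list 4 were higher and 3 lower, a share of falls near that of all genes tested. Of 39 effectors 30 were higher and 3 lower. Irf3, a factor activated by nucleic acid sensors, fell by 0.64 ± 0.10, and Socs1, a feedback inhibitor, by 0.81 ± 0.08. Isg15, a ubiquitin-like modifier, differed by 0.08 and was not called, while Irf1 was higher by 0.83 ± 0.06.

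A match to the interferon-stimulated element, searched as GAAANNGAA on both strands, stood in the 250 bases before the start of 18 of the 39 interferon genes with a promoter in the RefSeq table, or 46.2%. Over the promoters of all genes tested that the table holds, 10879 in all, the share was 6.04%. A match is a description of the letters and not a site shown to be bound. The promoter of Cxcl10 (chr5:92348890-92349139, minus strand, GRCm38.p6) is shown because this gene had the smallest p among called members with a match. The match is in capitals and begins 213 bases before the start.
Cxcl10: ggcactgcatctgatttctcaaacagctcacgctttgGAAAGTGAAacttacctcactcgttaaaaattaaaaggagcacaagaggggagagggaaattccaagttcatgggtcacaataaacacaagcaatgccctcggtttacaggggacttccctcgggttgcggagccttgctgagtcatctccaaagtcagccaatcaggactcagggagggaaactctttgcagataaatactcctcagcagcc

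MHC class I genes rose as a group. Of 16 tested, 14 were higher and 0 lower, the median log2 difference was 1.18, and 10 rose by at least 1. H2-K1, a classical class I heavy chain, had 5111, 5182 and 4928 in Vps15KO, against 1234, 1524 and 1107 in WT (1.97 ± 0.09, adjusted p = 5.57e-12). H2-Q4, a class Ib gene, had 521, 501 and 442 in Vps15KO, against 75.2, 73.0 and 79.0 in WT. Class I genes are similar to each other, so reads may be assigned unevenly among them. The peptide transporter gene Tap1 has no such copies and had 661, 664 and 727 in Vps15KO, against 210, 229 and 234 in WT. Psmb8, a subunit of the immunoproteasome, was 5.14-fold higher. Psme1 and Psme2, which encode the proteasome activator PA28, were the members not called, at -0.13 and -0.02.

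Sensors of foreign nucleic acid were split, with 7 higher and 3 lower of 16. Ifih1, the RNA sensor MDA5, had 859, 882 and 892 in Vps15KO, against 503, 437 and 463 in WT, and Cgas, the DNA sensor, was 1.96-fold higher. Ikbke, a kinase of the same path, fell by 0.69. Sting1, the adaptor below Cgas, was at -0.18, a call lost without replicate 2 or 3 of Vps15KO or replicate 1 of WT and when fitted on the 6 basal libraries alone. Inflammatory mediators outside the interferon list were also higher where they changed, 18 of 29 against 3 lower. Lcn2, which encodes an iron-trapping secreted protein, had 3494, 3307 and 2718 in Vps15KO, against 829, 1024 and 811 in WT. The cytokine Il6 was low in both, at 69.3, 46.1 and 49.0 in Vps15KO, against 6.01, 5.29 and 5.00 in WT. Ccl2, a monocyte chemokine, was 3.28-fold higher. Cxcl12, a chemokine that stromal cells make steadily, went the other way and had 9677, 7859 and 7877 in Vps15KO, against 15170, 12420 and 14960 in WT.

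Nearly every enzyme of cholesterol synthesis was higher. Of 29 genes of synthesis, uptake and sensing, 26 were higher and 1 lower, with a median log2 difference of 1.16, and within the 20 enzymes tested 18 rose. From acetyl-CoA to cholesterol, the enzymes not called were mevalonate kinase (Mvk, 0.17) and the sterol isomerase Ebp (0.05). Idi1, the isomerase that makes the second isoprene unit, had 752, 741 and 919 in Vps15KO, against 209, 122 and 272 in WT. Sqle, the squalene epoxidase that starts ring formation, had 4527, 5008 and 5399 in Vps15KO, against 1610, 1451 and 1777 in WT (1.61 ± 0.08, adjusted p = 7.77e-12). Msmo1, which removes methyl groups from the sterol ring, had 5729, 5552 and 5803 in Vps15KO, against 2031, 1935 and 2049 in WT. The rise thus spanned early, middle and late steps, as the plot in pathway order shows.

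**Figure D2:**
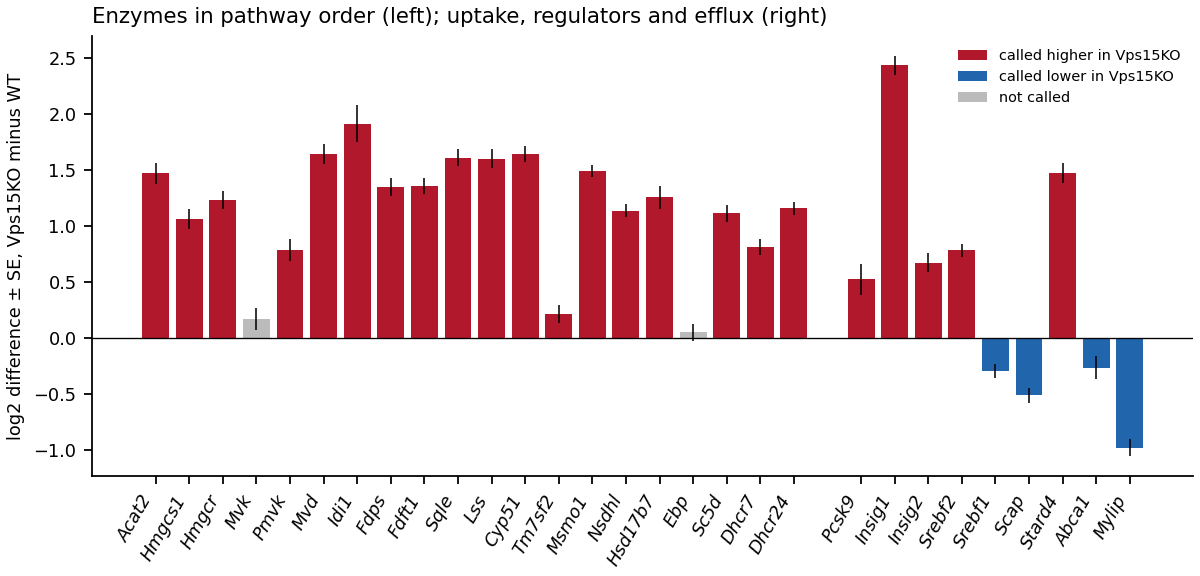
Log2 difference of Vps15KO minus WT in basal medium (bars, with standard error, 3 libraries each) for the cholesterol enzymes in pathway order at left and for uptake, regulators and efflux at right. Red bars were called higher in Vps15KO, blue bars lower, and grey bars were not called. Enzyme bars lie mostly between 0.79 and 1.92, while Scap, Srebf1, Abca1 and Mylip point down.

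Sensing genes changed too. Of 7 efflux genes 2 were higher and 2 lower, shares near those of all genes tested, with a median of 0.02. Insig1, which holds the SREBP precursor in the endoplasmic reticulum when sterols are plentiful and is itself an SREBP target, had 6194, 6392 and 6967 in Vps15KO, against 1241, 1011 and 1313 in WT, a fold of 5.49. Scap, the escort that carries SREBP to the Golgi, fell to 1457, 1380 and 1319 in Vps15KO, against 1946, 2123 and 1877 in WT. Mylip, a ubiquitin ligase gene and a target of the sterol-activated factor LXR, was 2.00-fold lower (-0.98 ± 0.08, adjusted p = 4.2e-09). Abca1, an exporter of cholesterol and another LXR target, was at -0.26 ± 0.10 (adjusted p = 0.0334), a call lost without replicate 1 or 3 of either genotype (adjusted p 0.0595 to 0.128), with no filter, with no variance trend and with voom. Abca2, another transporter of the same family, was higher by 0.70 ± 0.07, and Soat1, which esterifies cholesterol, by 0.46 ± 0.07. Fatty acid synthesis genes were higher in 18 of 23 and lower in 3, with a median of 0.55. The acetyl-CoA synthetase Acss2 was 2.21-fold higher, and the desaturases Fads1 and Scd1 rose by 0.89 and 0.84. Srebf1, their usual transcription factor, fell by 0.29 ± 0.06. Lipg, which encodes endothelial lipase, had 355, 418 and 582 in Vps15KO, against 35.1, 14.8 and 37.0 in WT. Genes of fatty acid oxidation were lower in 8 of 16 and higher in 4. Cpt1a, which admits fatty acids to mitochondria, had 1605, 1484 and 1465 in Vps15KO, against 3947, 3383 and 3557 in WT. Angptl4, a lipase inhibitor induced by fatty acids, was at 1.95, 1.96 and 0 in Vps15KO, against 44.1, 38.1 and 28.0 in WT.

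A sterol element searched as TCACNCCAC was rare in these windows, at 1 of 21 cholesterol genes (4.76%) against 0.882% of all promoters. That gene is Hmgcs1, the synthase of the first committed intermediate, which rose by 1.06. Its promoter (chr13:119690101-119690350, plus strand, GRCm38.p6) is shown with the match in capitals, 137 bases before the start.
Hmgcs1: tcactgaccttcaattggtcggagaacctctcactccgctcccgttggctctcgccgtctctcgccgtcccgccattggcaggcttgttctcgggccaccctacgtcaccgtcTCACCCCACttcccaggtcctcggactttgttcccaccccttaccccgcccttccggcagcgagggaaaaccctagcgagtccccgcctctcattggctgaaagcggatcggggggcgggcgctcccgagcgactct

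Amino acid and stress genes controlled by ATF4 were higher in fed cells. Of 41 genes, 35 were higher and 3 lower, with a median log2 difference of 0.98. Slc7a11 takes up cystine in exchange for glutamate, and its level was 757, 736 and 699 in Vps15KO, against 60.1, 67.8 and 67.0 in WT, 11.3-fold higher (3.06 ± 0.11, adjusted p = 2.43e-13). Asns, asparagine synthetase, had 9008, 8831 and 8389 in Vps15KO, against 2581, 3451 and 2855 in WT. Atf3, a stress transcription factor, had 761, 693 and 724 in Vps15KO, against 157, 188 and 180 in WT. The rise took in stress effectors (13 of 15) and amino acid enzymes (14 of 15). Amino acid transporters were divided, with 8 of 11 higher and 3 lower. Slc38a2, the adaptive neutral amino acid carrier, had 8775, 8094 and 8035 in Vps15KO, against 12100, 9806 and 11730 in WT. Slc7a3, a cationic amino acid carrier, had 13.7, 9.80 and 15.7 in Vps15KO, against 38.1, 41.3 and 30.0 in WT.

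The ATF4 half-site searched as TGATGNAA occurred in 8 of 35 promoters of the list (22.9%), against 2.13% of all promoters. Slc7a11 (chr3:50443614-50443863, minus strand, GRCm38.p6) is shown because it had the smallest p among called members with a match. It holds 2 matches, in capitals, on opposite strands, which begin 66 and 47 bases before the start.
Slc7a11: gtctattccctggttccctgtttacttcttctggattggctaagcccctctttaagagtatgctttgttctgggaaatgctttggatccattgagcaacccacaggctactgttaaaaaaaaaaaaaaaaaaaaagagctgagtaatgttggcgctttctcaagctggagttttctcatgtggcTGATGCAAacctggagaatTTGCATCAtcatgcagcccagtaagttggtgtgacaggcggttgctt

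Of 20 cytosolic aminoacyl-tRNA synthetases 18 were higher and 0 lower (median 0.76). Of 17 mitochondrial ones 2 were higher, 6 lower and 9 not called (median -0.10), a share of falls near that of all genes tested, and the difference between the 2 kinds was not tested. Tars, the cytosolic threonine enzyme, had 6094, 5744 and 5730 in Vps15KO, against 2474, 2570 and 2709 in WT. Lars2, the mitochondrial leucine enzyme, had 3669, 4315 and 4038 in Vps15KO, against 5572, 7493 and 5800 in WT. The plot of single genes by role sets both groups side by side. Of 13 mRNAs encoded in mitochondrial DNA, 9 were lower and 0 higher (median -0.51), or 5 lower without replicate 2 of Vps15KO. Their summed share of reads overlapped between genotypes, at 1.885%, 1.436% and 1.861% in Vps15KO, against 1.936%, 1.854% and 2.048% in WT. CYTB, the cytochrome b gene, had 27960, 18570 and 21270 in Vps15KO, against 52380, 60170 and 56140 in WT. COX1, a core subunit of cytochrome oxidase, had 267800, 210800 and 279100 in Vps15KO, against 235200, 217300 and 244400 in WT, which overlap, and was not called. These libraries were made from poly-A RNA, and reads of mitochondrial genes with nuclear copies may be assigned unevenly. Nuclear genes of the respiratory chain were lower in 16 of 33 and higher in 4, with a median of -0.17, or -0.07 without replicate 2 of WT. Ribosomal protein genes had a median of -0.05, or 0.06 without that library. Ribosome biogenesis genes were higher in 22 of 28 and lower in 1, with Myc, the growth factor-induced regulator of this program, 2.33-fold higher and the polymerase I factor Ubtf lower by 0.64.

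**Figure D3:**
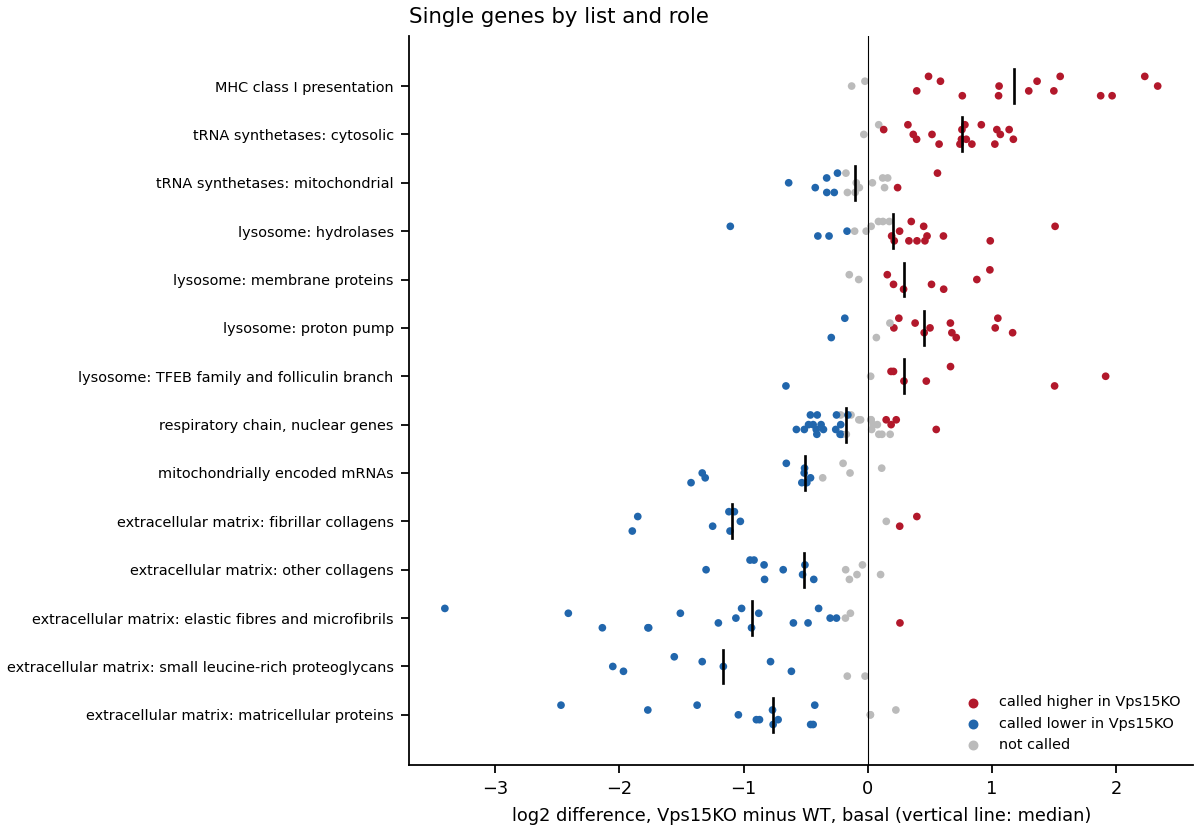
Log2 difference of Vps15KO minus WT in basal medium (horizontal axis) for single genes of 6 lists, split by role (rows), one point per tested gene, red where called higher in Vps15KO, blue where called lower and grey where not called, with a vertical line at each median. Most MHC class I and cytosolic synthetase points lie right of 0, mitochondrial synthetases straddle 0, and matrix genes reach down to -3.41 for Mfap4.

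Targets of NRF2, the factor that answers oxidants and electrophiles, were higher in 20 of 32 and lower in 5. Hmox1, heme oxygenase, had 5382, 5450 and 5388 in Vps15KO, against 1668, 1625 and 1655 in WT. Gclm, a subunit of the enzyme that limits glutathione synthesis, had 778, 812 and 818 in Vps15KO, against 283, 254 and 321 in WT. Neither overlapped. Gpx1, a glutathione peroxidase, fell by 0.64 and Gsto1, a glutathione transferase, by 0.53. Among iron genes, the ferritin chains Fth1 and Ftl1, which store iron, were 2.58-fold and 2.93-fold higher, although both have many processed copies in the genome. Slc11a2, which moves iron out of endosomes, was higher by 1.35, and Steap3, an endosomal iron reductase, fell by 0.58. The antioxidant element searched as TGACNNNGC was in 7 of 25 promoters of the list (28%) and in 11.9% of all promoters. Abcc4, an exporter of conjugates and cyclic nucleotides, had 1476, 1539 and 1576 in Vps15KO, against 359, 310 and 382 in WT, and had the smallest p among called members with a match. Its promoter (chr14:118706220-118706469, minus strand, GRCm38.p6) is printed for that reason, with the match in capitals on the opposite strand, 25 bases before the start. This window lies inside the gene as annotated (chr14:118482692-118707856), so the start meant is not the outer end of the gene.
Abcc4: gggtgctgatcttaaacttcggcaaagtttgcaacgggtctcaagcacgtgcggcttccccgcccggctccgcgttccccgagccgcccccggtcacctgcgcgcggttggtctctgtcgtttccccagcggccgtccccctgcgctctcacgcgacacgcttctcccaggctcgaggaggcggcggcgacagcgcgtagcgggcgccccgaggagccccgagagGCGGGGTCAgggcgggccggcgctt

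Lysosome genes were higher in a graded way. Of 55 tested, 37 were higher and 7 lower, with a median of 0.29. Of 15 proton pump genes, which acidify the lysosome, 11 were higher and 2 lower, and Atp6v1b2 had 5039, 5048 and 5111 in Vps15KO, against 2194, 2195 and 2339 in WT. Gla, alpha-galactosidase, had 2831, 2737 and 2823 in Vps15KO, against 913, 960 and 1026 in WT. The RagD GTPase gene Rragd, which acts in the folliculin branch of nutrient sensing, had 98.6, 102 and 97.1 in Vps15KO, against 9.02, 15.9 and 9.00 in WT, 8.78-fold higher. Fnip2, a folliculin partner, was 2.87-fold higher. Tfeb, the master regulator of this program, moved against its list and had 503, 491 and 483 in Vps15KO, against 784, 883 and 723 in WT. Ctsf, a cathepsin, was 2.55-fold lower.

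Autophagy genes proper changed in both directions, with 16 of 37 higher and 8 lower and a median of 0.08, or 0.12 without replicate 2 of WT. Sqstm1, the receptor p62 that is itself degraded by autophagy, stood out with 40680, 45370 and 47230 in Vps15KO, against 17750, 18450 and 18120 in WT (1.29 ± 0.07, adjusted p = 4.86e-11). Optn, another receptor, was 2.15-fold higher. Gabarap, an ATG8 protein that coats autophagosomes, had 10460, 9910 and 9499 in Vps15KO, against 12640, 16230 and 11790 in WT. In endosome sorting 20 of 38 were higher and 5 lower. Vps35, the core of retromer, had 7350, 7072 and 7338 in Vps15KO, against 3981, 3194 and 3850 in WT. Of 16 genes of ESCRT, the machinery that folds cargo into late endosomes, 7 were higher and 5 lower, with a median of 0.12. That share of falls was near that of all genes tested. The 5 that fell were Vps28, Snf8, Chmp2a, Chmp6 and Vps4a, by 0.27 to 0.31. Vps37a of the same machinery was 2.03-fold higher. Chmp2a and Chmp6 were no longer called without replicate 2 of WT, nor Chmp2a without replicate 1 of Vps15KO and with library weights, nor Chmp6 without replicate 2 of Vps15KO and with length and GC trends removed.

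**Figure D4:**
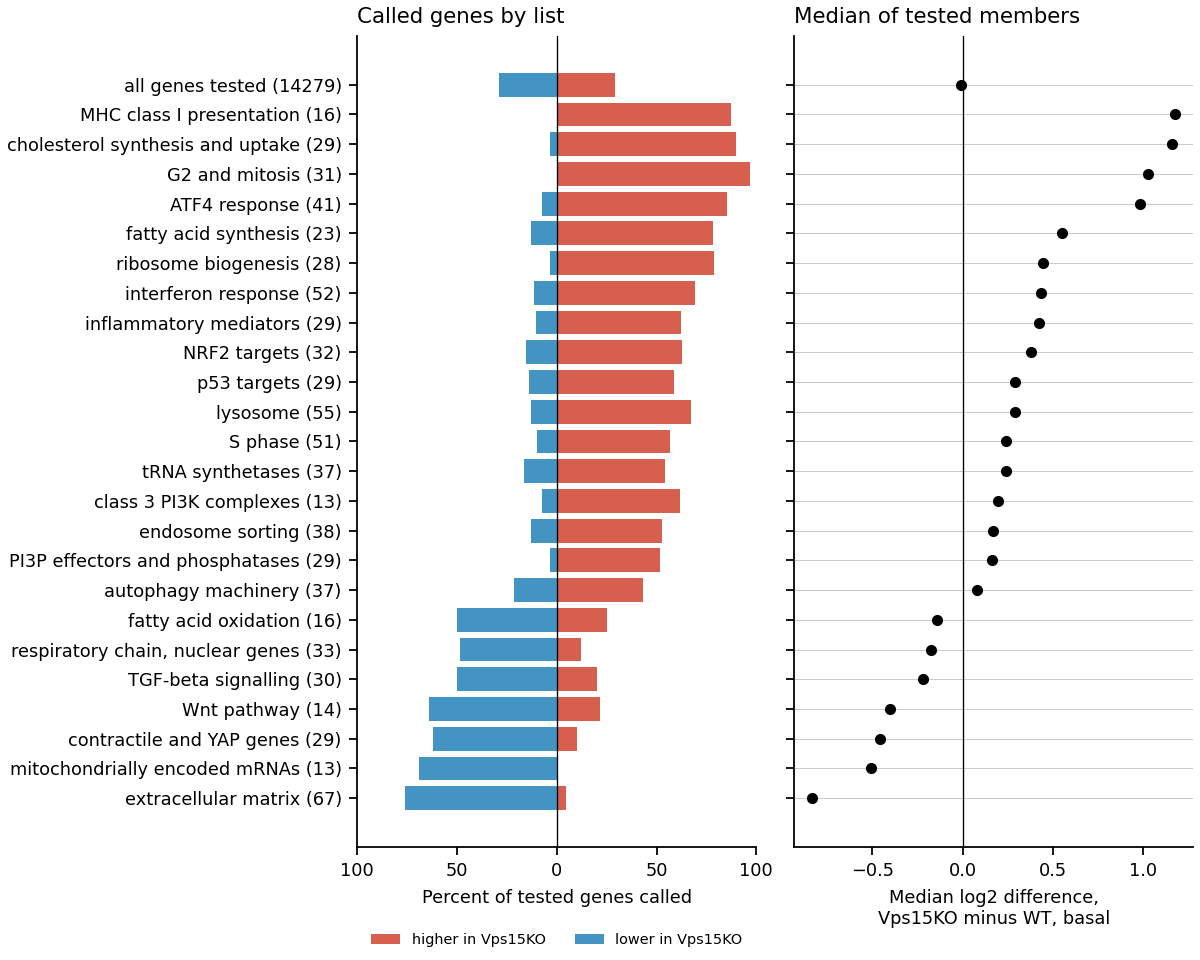
Share of tested genes called higher (red, right) or lower (blue, left) in Vps15KO basal against WT basal for 24 lists and for all genes tested (left panel, percent, with the number tested in brackets), and the median log2 difference of each list (right panel). All genes tested split evenly at 29.3% and 29.2%, lists from MHC class I to NRF2 targets lean to the right, and extracellular matrix has the lowest median at -0.83.

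Genes of mitosis rose together. In the list of G2 and mitosis, 30 of 31 genes were higher and 0 lower, with a median of 1.03. Plk1, a mitotic kinase, had 485, 634 and 683 in Vps15KO, against 242, 220 and 228 in WT. Aurka, the centrosomal kinase, had 702, 861 and 982 in Vps15KO, against 336, 333 and 340 in WT. Spread was wider among the Vps15KO libraries than among the WT ones, without overlap. Cdc25a, a phosphatase of the same list, was not called (0.06). S phase genes rose less, in 29 of 51 with 5 lower and a median of 0.24, led by Cdt1, which licenses replication origins (2.37-fold). The E2F motif TTTNNCGC was in 14 of 40 S phase promoters (35%), in 2 of 26 of the mitosis list (7.69%) and in 7.14% of all promoters. Of 6 CDK inhibitors 3 were higher and 1 lower, with a median of 0.16. Cdkn1a, the p53 target p21 that stops the cycle, had 1193, 1185 and 1179 in Vps15KO, against 542, 618 and 555 in WT. Gadd45a, a damage response gene, was 3.495-fold higher, and of 29 p53 targets 17 were higher and 4 lower. Btg2, an antiproliferative p53 target, had 251, 240 and 263 in Vps15KO, against 647, 529 and 612 in WT. Cdkn2c, the CDK inhibitor p18, was 1.94-fold lower.

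Matrix genes fell across every class. The largest falls among called genes without overlap were Mfap4, H19, Thbs2, Mfap2, Trpm5, Tnn, Rasl11b, Lrrc17, Eln, S100a4, Lum and Tmem119. Of 67 extracellular matrix genes 51 were lower and 3 higher, with a median of -0.83, and 26 fell by at least 1. Mfap4, a microfibril protein that binds elastin, had 202, 168 and 190 in Vps15KO, against 1758, 2785 and 2275 in WT, 12.2-fold lower (-3.41 ± 0.17, adjusted p = 1.53e-11). Eln itself, elastin, had 69.3, 48.0 and 61.8 in Vps15KO, against 278, 360 and 417 in WT. Lum, a small leucine-rich proteoglycan that spaces collagen fibrils, had 110, 99.0 and 94.1 in Vps15KO, against 490, 485 and 533 in WT. Small proteoglycans had the lowest median, -1.16, followed by fibrillar collagens at -1.09, elastic fibre genes at -0.94 and matricellular genes at -0.76. Col1a1, the main collagen of fibroblasts, had 19830, 21440 and 23320 in Vps15KO, against 70880, 90840 and 79640 in WT. Col3a1 was 3.61-fold lower. Not all abundant matrix genes changed: Spp1, osteopontin, had 258300, 245500 and 216100 in Vps15KO, against 245400, 239000 and 223400 in WT, overlapping ranges. The exceptions that rose were Col11a2 and Fbln1, by 0.40 and 0.26, and Col5a3, at 0.26, whose call was lost without replicate 2 or 3 of Vps15KO or replicate 1 or 3 of WT, with equal medians, with no filter and on the 6 basal libraries alone. Fibroblast marker sums fell with this list, which holds several of the same genes, and their part in the result was not tested.

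Other large falls lay outside the matrix list. Trpm5, a cation channel best known in taste cells, had 32.2, 30.4 and 40.2 in Vps15KO, against 261.5, 312 and 272 in WT. Tmem119, a membrane protein that acts in bone formation and marks microglia in brain, had 1452, 1259 and 1118 in Vps15KO, against 5163, 5504 and 4787 in WT. S100a4, a calcium-binding protein of motile fibroblasts, had 7968, 7798 and 6827 in Vps15KO, against 29080, 38770 and 29870 in WT. The imprinted RNA H19 had 2308, 1996 and 1835 in Vps15KO, against 11830, 13820 and 11310 in WT. It was not alone among maternally expressed RNAs, since Meg3 was 2.92-fold lower and Rian fell by 0.83. Of 15 imprinted genes 3 were higher and 7 lower.

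Contractile genes were lower in 14 of 18 and higher in 0, with a median of -0.90. Actb, cytoplasmic actin and a common reference gene, had 21090, 22490 and 22540 in Vps15KO, against 48120, 52820 and 49940 in WT. Myl9, a myosin light chain, had 1937, 2173 and 2023 in Vps15KO, against 6719, 8786 and 6325 in WT. Srf, the factor that drives many of these genes, was lower, at a log2 difference of -0.535. The summed muscle markers given above were lower with this list. Of the 5 muscle markers tested, 2 were lower and 1 higher, with a median of 0.09. The part of these markers in the result was not tested. TGF-beta pathway genes were lower in 15 of 30 and higher in 6. Bmp2, a ligand of the family, had 252, 142 and 166 in Vps15KO, against 590, 501 and 542 in WT, whereas Tgfb1 was higher by 0.52. Among Wnt genes 9 of 14 were lower and 3 higher, led by the antagonist Dkk2, which was 3.93-fold lower. Receptors for growth factors were split, 7 of 19 higher and 10 lower. Pdgfrb, the platelet-derived growth factor receptor of fibroblasts, fell by 0.88, Met, the receptor of hepatocyte growth factor, was 2.07-fold higher, and Irs1, the adaptor of insulin receptors, was 2.43-fold lower. Of 27 mesenchymal lineage factors 9 were higher, a share near that of all genes tested, and 11 lower, with a median of -0.05. Osr2, a mesenchymal zinc finger factor, was 3.38-fold lower, and Foxc2 was higher by 0.57.

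Whether the fed effect differed from that in EBSS was tested as the difference of the genotype effects. At this test 8.24% of genes had a higher effect in basal medium and 9.55% a lower one. The genes named next have among the largest such differences of all genes named here and were chosen after their values were seen. Hmox1 averaged 5407 ± 37.8 in Vps15KO and 1650 ± 22.4 in WT in basal medium, against 12510 ± 683 in Vps15KO and 11680 ± 437 in WT in EBSS (SD, n = 3 each). The genotypes thus differed in fed cells by 1.70 and in EBSS by 0.10, a difference of 1.60 ± 0.08 (adjusted p = 8.83e-10). Fnip2 averaged 3982 ± 91.0 in Vps15KO and 1386 ± 58.0 in WT when fed, against 11340 ± 787 in Vps15KO and 9156 ± 550.2 in WT in EBSS (difference 1.197 ± 0.09, adjusted p = 8.47e-08). Sqstm1 (difference 1.08) and Gadd45a (1.16) had the same pattern, a wide gap in basal medium and a narrow one in EBSS. The metallothionein Mt2, which binds zinc and copper, had the largest difference of the named genes, 1.93 ± 0.12, and opposite directions in the media. It averaged 1553 ± 107 in Vps15KO and 683 ± 74.5 in WT when fed, against 2406 ± 48.9 in Vps15KO and 4169 ± 543 in WT in EBSS. Bhlhe40, a repressor of the clock and of stress responses, had a smaller effect when fed, with 4397 ± 235 in Vps15KO and 2610 ± 224 in WT, against 21940 ± 794 in Vps15KO and 4212 ± 460.4 in WT in EBSS (difference -1.63 ± 0.11, adjusted p = 2.66e-08). Btg2 changed direction too, with 251 ± 11.3 in Vps15KO and 596 ± 60.6 in WT when fed, against 279 ± 22.2 in Vps15KO and 170.1 ± 13.2 in WT in EBSS. Id3, a helix-loop-helix inhibitor induced by BMP signals, averaged 1044 ± 58.7 in Vps15KO and 2294 ± 48.0 in WT when fed, against 1140 ± 40.1 in Vps15KO and 1118 ± 34.6 in WT in EBSS. Its difference was -1.14 ± 0.09, and no genotype effect was called in EBSS. Of the 31 mitosis genes none had a called difference between media, and 1 of the 16 MHC class I genes did.

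**Figure D5:**
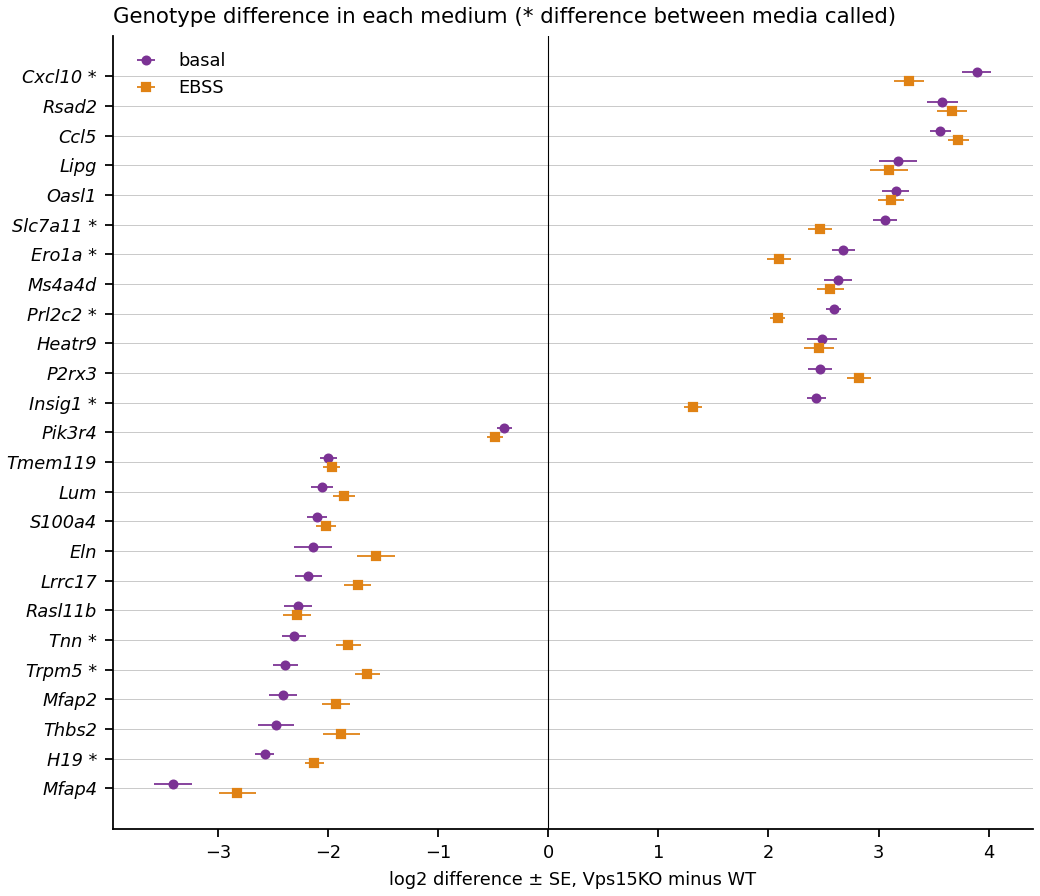
Log2 difference of Vps15KO minus WT with its standard error in basal medium (circles) and in EBSS (squares) for the 12 largest rises, Pik3r4 and the 12 largest falls in basal medium, 3 libraries per group. An asterisk marks a called difference between the media. Every gene keeps its direction, and Insig1 shows the widest gap, 2.44 in basal medium and 1.32 in EBSS.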

How the data were processed

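RNA from 12 mouse fibroblast libraries, 3 per genotype and medium, was sequenced as poly-A RNA, stranded and paired-end, per the labels' protocols. The deposited table holds log2 values with a floor of 3.828, a variance-stabilized scale as DESeq2 makes, and tools named in the submitters' processing notes are DESeq2, limma, featureCounts and STAR 2.7.10b, with mm10 as the build. Whether counting used strand is not given in the sources used here. From the log2 values the authors deposited, normalized counts and whole reads were worked back, and 100% came out whole within 0.001. Genes whose mean exceeded the floor by 1 or more, 14279 in all, entered a fit (limma 3.58.1, R 4.3.3) on the log2 values of all 12 libraries, with group means, a variance trend and Benjamini-Hochberg adjustment. Medians and counts describe lists, with no test of a list. Members and lists were chosen with earlier results of these data known. Named genes are the class 3 PI3K list, the 12 largest rises and falls without overlap, leaving out predicted genes and pseudogenes, up to 4 members of each list and 1 of each role with the smallest p, and called members against their list's direction. Others were chosen after their values were seen. Libraries were not paired by replicate number in the main fit. Other scalings, filters, tools and each library left out were tried. Promoters are from RefSeq (GRCm38.p6). The code was tested on simulated data. Some genes are not reported here.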

Additional observations from a re-analysis of the deposited data

Results flagged for a closer look

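Pik3r4 and the 24 genes with the largest changes were examined for a genotype effect that differs between basal medium and EBSS, tested as a difference of effects in the limma fit, with 3 libraries per group. The difference was called for 8 of them. Over all genes tested, 8.24% had a higher effect in basal medium and 9.55% a lower one. The 24 genes were picked for large effects in the same basal libraries, which favours a larger effect in basal medium. The direction of their differences is therefore not a separate result.

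In the 5 rises with a called difference, the effect was larger in basal medium. The difference (basal effect minus EBSS effect, log2) was 1.120 for Insig1 (adjusted p = 5.53e-06), 0.615 for Cxcl10 (adjusted p = 0.0295), 0.588 for Slc7a11 (adjusted p = 0.0119), 0.585 for Ero1a (adjusted p = 0.012) and 0.508 for Prl2c2 (adjusted p = 0.00114). Without the 2 WT libraries that stand apart, replicate 2 in basal medium and replicate 1 in EBSS, Cxcl10 was no longer called (0.367, adjusted p = 0.0572). The other 4 were still called, and P2rx3, a rise with a larger effect in EBSS, became called (-0.387, adjusted p = 0.0402, against -0.355 and 0.13 with all libraries). Cxcl10 was 16.5-fold higher in Vps15KO in basal medium, and in EBSS it averaged 4840 ± 178 normalized counts in Vps15KO and 478 ± 84.5 in WT (SD, n = 3 each).

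In the 3 falls with a called difference, the effect in basal medium was more negative. The difference was -0.744 for Trpm5 (adjusted p = 0.00348), -0.494 for Tnn (adjusted p = 0.0376) and -0.451 for H19 (adjusted p = 0.0141). All 3 were still called without those 2 WT libraries.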

How the results depend on the processing

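In all, 4184 genes were called higher and 4169 lower in Vps15KO, and leaving out each library gave 3678 to 4175 higher and 3702 to 4124 lower. With a replicate block the counts were 4182 and 4176, and no named gene lost its call. The block on the 6 basal libraries alone gave 4125 and 4126, and 11 named genes were lost, among them Col5a3. Without the block those 6 libraries gave 3793 and 3813. The main fit did not pair libraries, since pairing was set to need all same-numbered correlations of residuals above 0.1. They were 0.0905, 0.2595 and 0.0825, against -0.2119 to 0.1064 between different numbers. Whether libraries of the same number share a source is not given by the labels. With medians made equal between libraries, 3780 were higher and 4583 lower, and the median of all genes was -0.045. Genes past a log2 of 1 depend on the scale: 421 rose and 275 fell on the deposited scale, 788 and 654 with log2 of the normalized count plus 1, and 805 and 675 with voom. The deposited scale understates ratios of genes with few reads, as said above, but its share in these counts was not tested. The difference between media was called higher in basal medium for 1177 genes and lower for 1363, against 1805 higher with library weights, and 520 and 707 at an adjusted p under 0.01, a stricter limit by construction.

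Of the genes examined, 3 changed sign and none of them was called. Ambra1 was -0.017 with quantile normalization, -0.027 with equal medians, and -0.032 to 0.069 with a library left out. Cd14 was 0.032 with length and GC trends removed. Pappa was -0.018 with library weights, -0.061 without the 2 WT libraries that stand apart (chosen after seeing the data), and -0.061 to 0.225 with a library left out. Of 389 named genes called, 23 were lost without replicate 2 of WT. Pik3r4 kept its call under every alternative run. Depth limits genes such as Angptl4, whose Vps15KO libraries hold under 3 reads each.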
